A study of Mus musculus with 20 samples.

Results

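The liver transcriptomes of obese mice fed salmon filet were compared with those of obese mice fed beef. The 10 mice of the comparison, 5 per diet, were chosen among the 20 mice of the series by the diet written in the header of the count table. They were female C57BL/6J mice, an inbred strain without any transgene, which were put on a high-fat diet (HFD) at 8 weeks of age, were later given isocaloric HFDs for 10 weeks in which salmon filet or beef supplied 50% of the protein, and were 28 weeks old at sampling. The HFD and its lard were common to both groups. The fatty acids, amino acids and micronutrients that come with fish or beef differed together. So did the amount of soybean oil, which the study added to even out the fat content and which was lower with salmon filet. The study sequenced a subset of each diet group that it called representative. The salmon filet group held mice 22, 23, 25, 26 and 27, and the beef group held mice 31, 32, 35, 39 and 40. Mouse 31 carried the header of the beef group but a sample label that names salmon. Many results are therefore also given without it, or with the 6 against 4 mice that the labels give. Where neither is stated, values are for the groups by header. Some genes with an unadjusted p under 0.05 in those groups lose it under the alternatives. The other mice, 5 fed chow and 5 fed an HFD with fishmeal made from salmon by-products, are used here only to place the levels of single genes.

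Liver adapts to a meal through transcription factors that sense lipids. SREBP-2 raises the enzymes of cholesterol synthesis when sterols in the endoplasmic reticulum are low, SREBP-1c and ChREBP drive fatty acid synthesis, LXR raises sterol export when oxysterols accumulate, and PPAR-alpha, which binds fatty acids, raises fatty acid oxidation. Long-chain omega-3 fatty acids of fish are known to activate PPAR-alpha and to lower the activity of SREBP-1c, while beef is the richer source of heme iron. The comparison asks whether exchanging one of these protein sources for the other, within a diet that stays rich in fat, alters hepatic gene expression.

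Each mouse gave 1 library, with 42526234 to 60432246 reads counted on genes. The share of counts on protein coding genes was 93.2% to 94.99% in 9 of the libraries and 84.3% in mouse 35, which was fed beef, where ribosomal RNA genes took 12.7% against 2.72% to 4.55% in the others. Mouse 23, fed salmon filet, stood apart by its acute phase genes, described further on. The 20 pairs of libraries within a diet each differed by more than counting noise, so all were kept as separate mice. Genes typical of hepatocytes made up 108300 to 121400 CPM, counts scaled to library size, with salmon filet and 113300 to 133900 CPM with beef, and Alb, the serum albumin gene, had 70380 to 84510 and 77760 to 98120 CPM. The tissue label was thus borne out by its defining genes. In such bulk tissue, fewer cells of a type and less RNA per cell cannot be told apart.

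In the quasi-likelihood test of edgeR, none of 16212 genes (0%) differed between salmon filet and beef at an adjusted p under 0.05, the threshold for a call. Without adjustment, 433 genes (2.67%) were higher and 363 genes (2.24%) lower with salmon filet at a p under 0.05. The lowest adjusted p in this test was 0.117, for Pdzk1ip1. DESeq2, the tool the study used, called 7 of 22149 genes (0.0316%), all of them higher with salmon filet. At an unadjusted p under 0.05 DESeq2 had 1036 genes. Among the called genes were the protein coding Pdzk1ip1, Pmvk, Fabp5 and Nfe2, which the study had itself picked out on these samples, the pseudogene Gm10039 and the long non-coding RNA Gm32468. The count changed when single mice were left out, and so did the number of genes over which DESeq2 adjusted. Leaving out mouse 35 gave 30 DESeq2 calls among 15117 genes, leaving out mouse 23 gave 22 among 19341 and leaving out mouse 25 gave 11 among 17647. The number was 4 among 21917 genes without mouse 40. It was 3 among 21837 without mouse 22 and 3 among 21968 without mouse 39. How much of these changes came from the number of genes adjusted over was not tested. In edgeR, 2 genes, Pdzk1ip1 and Pmvk, were called without mouse 23 and none when any other mouse was left out. Without mouse 31, DESeq2 called 5 of 21859 genes, and with the groups as labelled it called 2 of 22155, Gm32468 and Pdzk1ip1.

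The precision of the comparison can be read from its intervals. Among 12682 genes with a mean of at least 1 CPM, the 95% interval of the log2 fold change reached 0.29 to either side of the estimate at the median, which is a factor of 1.226. For 88.6% of all genes tested, the whole interval lay within a 2-fold difference in either direction. The median log2 fold change, salmon filet minus beef, was 0.01 over all genes tested, and 51.4% of genes were higher with salmon filet. Over the whole transcriptome, the diet accounted for 10.9% of the variance between the 10 mice, which was not larger than the spread within diets (pseudo-F of distances = 0.98, exact permutation test over all divisions of the mice, p = 0.444). In a principal component analysis, mice 23 (salmon filet), 35 and 40 (both beef) lay on one side of the first component, at 17.3, 15.1 and 13.4. Mouse 39 (beef) was near the middle at 3.06, and the other 6 mice, of both diets, were on the other side.

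**Figure D1:**
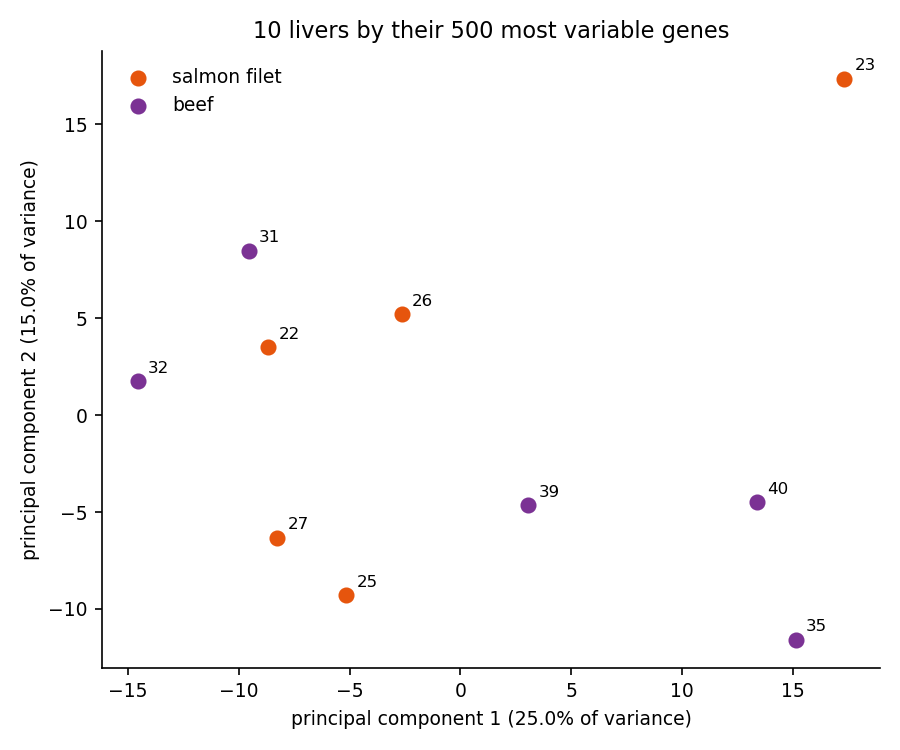
Position of the 10 livers on the first 2 principal components of their 500 most variable genes (log2 CPM), with the share of variance on each axis, one point per mouse and the mouse number beside it. The diets are intermixed, and mouse 23 lies alone at the top right.

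Pdzk1ip1 codes for a small membrane protein that binds PDZ domain proteins and lies at chr4:115088708-115093899 on GRCm38. Its level in mice fed salmon filet was 3.22, 2.12, 3.88, 2.83 and 2.88 CPM, against 1.2, 0.940, 1.38, 0.951 and 1.201 CPM in mice fed beef. All mice fed salmon filet were thus above all mice fed beef, a separation seen in that direction for 0.432% of all genes tested and in the opposite one for 0.648%, with means of 2.99 ± 0.640 and 1.15 ± 0.194 CPM (SD, n = 5 each). The log2 fold change was 1.392 ± 0.19 (SE), a 2.62-fold difference. DESeq2 called it (adjusted p = 6.68e-08) and still did when any 1 of the 10 mice was left out, without mouse 31 (adjusted p = 2.24e-06) and with the groups as labelled (adjusted p = 0.0441), whereas edgeR did not (adjusted p = 0.117, and 0.0263 to 0.591 with 1 mouse left out).

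Fabp5 codes for a fatty acid binding protein of epidermis, adipose tissue and macrophages, and lies at chr3:10012548-10016607. It had 24.0, 50.2, 37.7, 20.6 and 44.1 CPM with salmon filet, against 10.4, 16.9, 14.8, 8.21 and 15.7 CPM with beef. The ranges did not overlap, and the lowest values of each group were in mice 26 and 39. The log2 fold change of 1.43 ± 0.26 (SE) corresponds to a 2.69-fold difference. It was called by DESeq2 (adjusted p = 0.000582), also with any 1 mouse left out, but not with the groups as labelled (adjusted p = 1.00), and not by edgeR (adjusted p = 0.678). The other fatty acid binding proteins did not share this difference: Fabp1, the abundant liver form, had a mean of 4866 CPM with salmon filet and 4795 CPM with beef, and Fabp4 had 7.85 and 8.57 CPM.

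Nfe2, a transcription factor of megakaryocytes and red blood cell precursors at chr15:103248212-103258403, was a gene of low level. It had 1.505, 1.60, 1.58, 1.97 and 2.03 CPM with salmon filet and 0.743, 1.265, 0.856, 0.348 and 0.480 CPM with beef. Each mouse fed salmon filet exceeded each mouse fed beef, although the highest beef value, in mouse 32, came close. The log2 fold change was 1.233 ± 0.28 (SE), and DESeq2 called it (adjusted p = 0.0411) but kept the call in only 3 of the 10 fits that left out 1 mouse. Among other genes of these lineages, Klf1 had 1.495 and 1.457 CPM, Tal1 1.108 and 1.141 CPM and Itga2b 2.26 and 2.10 CPM with salmon filet and beef, respectively. Of the 13 red blood cell and megakaryocyte genes tested, 9 were higher with salmon filet, with a median log2 fold change of 0.21, and Nfe2 alone had an unadjusted p under 0.05. Without mouse 35, 12 were higher, with a median of 0.71 and 4 under that p, and without mouse 31, 7 were higher, with a median of 0.02. Without mouse 23, 2 were under that p.

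Set beside the other diets, these genes had one order of means. Fabp5 averaged 130 ± 61.1 CPM in chow-fed mice and 8.38 ± 2.71 CPM in mice fed fishmeal (SD, n = 5 each), so that salmon filet, at 35.3 ± 12.7 CPM, lay between chow and beef, at 13.2 ± 3.72 CPM. Pdzk1ip1 had 4.18 ± 2.69 CPM with chow and 0.966 ± 0.424 CPM with fishmeal, and Nfe2 had 2.92 ± 1.86 and 0.271 ± 0.143 CPM, the same order of means.

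**Figure D2:**
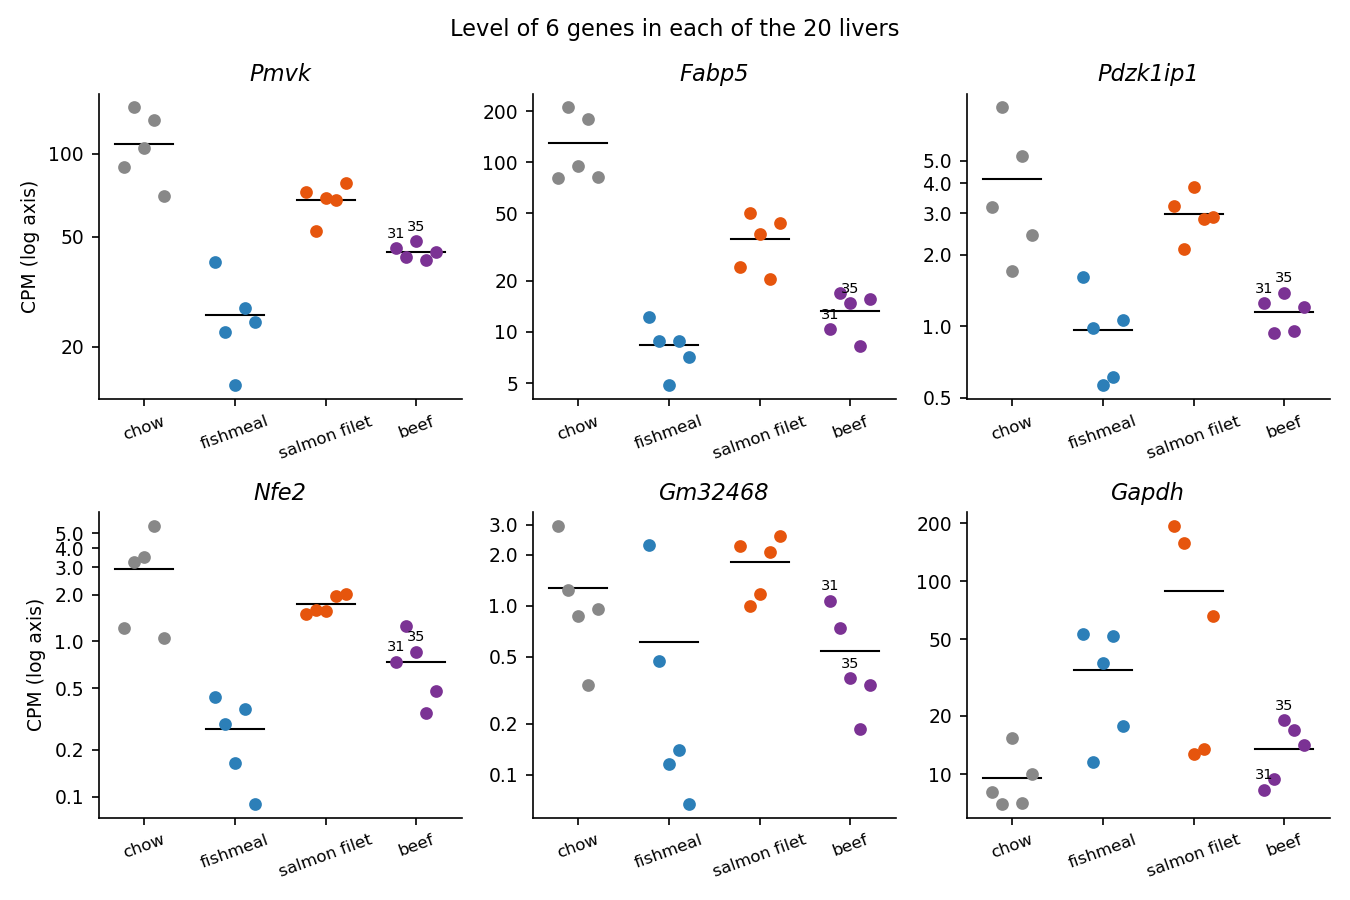
Levels of Pmvk, Fabp5, Pdzk1ip1, Nfe2, Gm32468 and Gapdh in each of the 20 livers, in CPM on a log axis, with one point per mouse, a line at the mean of each diet and the numbers of mice 31 and 35 beside their points. For the first 4 genes every salmon filet point lies above every beef point, for Gm32468 mouse 31 reaches the salmon filet range, and for Gapdh 3 of the salmon filet mice are high and the other 2 lie among the beef mice.

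Cholesterol is built from acetyl-CoA through mevalonate, the isoprenoid farnesyl diphosphate and squalene, and SREBP-2 acts on nearly every enzyme of that route. Pmvk, phosphomevalonate kinase, which adds the second phosphate to mevalonate, was the gene of this route with the clearest difference. It lies at chr3:89454541-89469013. Mice fed salmon filet had 72.8, 52.7, 69.2, 67.8 and 78.1 CPM and mice fed beef had 45.6, 42.2, 48.3, 41.1 and 43.9 CPM. The beef values were tightly grouped and all below the lowest salmon filet value, that of mouse 23. The log2 fold change was 0.63 ± 0.11 (SE), a 1.55-fold difference that DESeq2 called (adjusted p = 0.000836), with any 1 mouse left out and without mouse 31 (adjusted p = 0.00593) but not with the groups as labelled (adjusted p = 0.396). In edgeR the adjusted p was 0.461, and 0.0263 without mouse 23.

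Promoters of the kinase and of its neighbours in the mevalonate arm are shown because these genes were higher together when mouse 35 was left out, and that of Pdzk1ip1 because it had the lowest p. Each is the 250 bases before the RefSeq start on GRCm38.p6, read 5′ to 3′ along the gene. Capitals mark the CCAAT box, searched as CCAAT on both strands so that ATTGG is its reverse, in the first 3, and the E-box CACGTG in the last.
Pmvk (chr3:89454291-89454540, plus strand): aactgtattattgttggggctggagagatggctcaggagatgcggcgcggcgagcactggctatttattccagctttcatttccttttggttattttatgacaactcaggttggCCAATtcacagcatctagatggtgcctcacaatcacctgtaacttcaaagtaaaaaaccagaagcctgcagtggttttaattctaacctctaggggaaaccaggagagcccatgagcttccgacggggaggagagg
Mvk (chr5:114444019-114444268, plus strand): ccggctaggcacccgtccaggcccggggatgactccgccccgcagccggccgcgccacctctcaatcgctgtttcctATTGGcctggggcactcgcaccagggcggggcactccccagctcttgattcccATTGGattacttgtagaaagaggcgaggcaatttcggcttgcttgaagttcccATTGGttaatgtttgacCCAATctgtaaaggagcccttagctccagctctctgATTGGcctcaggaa
Mvd (chr8:122443423-122443672, minus strand): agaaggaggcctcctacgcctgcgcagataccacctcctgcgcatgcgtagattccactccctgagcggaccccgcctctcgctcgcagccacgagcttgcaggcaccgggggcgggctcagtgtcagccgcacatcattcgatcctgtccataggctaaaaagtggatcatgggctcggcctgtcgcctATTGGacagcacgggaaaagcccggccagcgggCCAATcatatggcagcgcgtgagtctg
Pdzk1ip1 (chr4:115088458-115088707, plus strand): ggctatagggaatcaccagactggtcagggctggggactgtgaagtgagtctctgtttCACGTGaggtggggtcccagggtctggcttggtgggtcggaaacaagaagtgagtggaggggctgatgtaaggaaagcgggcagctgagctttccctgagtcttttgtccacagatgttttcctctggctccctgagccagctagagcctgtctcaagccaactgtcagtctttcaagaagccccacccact
Of the 21 genes of cholesterol synthesis examined, 16 had a promoter in the RefSeq table, and 14 of these (87.5%) held a CCAAT box, against 33.8% of 32851 promoters of the same length. The E-box was in 2 of the 16 (12.5%) and in 6.02% of all, and a sterol regulatory element, searched as TCACNCCAC on both strands, was in 1 of the 16 and in 1.05% of all. Such matches describe the letters only.

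Of the 21 enzymes, 18 were higher with salmon filet, with a median log2 fold change of 0.26 against 0.01 over all genes tested. An unadjusted p under 0.05 was reached by 4 of them, all higher: Pmvk, Acat2 (0.41 ± 0.15, SE), which joins 2 acetyl-CoA, Tm7sf2 (0.44 ± 0.19), a sterol reductase, and Fdft1 (0.37 ± 0.17), squalene synthase. None was called by edgeR, and Pmvk was the one called by DESeq2. Hmgcs1, which acts early in the route, had a log2 fold change of 0.19 ± 0.30. Values of the same sign but within their error were seen for Mvk (0.37 ± 0.22), Mvd (0.47 ± 0.32), Idi1 (0.31 ± 0.31), Fdps (0.34 ± 0.29) and Sqle (0.38 ± 0.24). Hsd17b7, Sc5d and Lbr had estimates of -0.09, -0.00 and -0.01, all of which turned positive without mouse 31, and that of Hmgcs1 turned negative without mouse 27. Acat2 shares near-identical sequence with Acat3, and Fdft1, Mvd, Fdps and Tm7sf2 overlap other annotated genes, so their counts are less certain.

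The count depended on mouse 35. Its Mvk level of 20.8 CPM compares with 7.41 to 12.4 CPM in the other mice fed beef and with 14.4 to 16.8 CPM in mice fed salmon filet. Its Mvd level of 43.3 CPM exceeded the 9.61 to 19.7 CPM of the other mice fed beef and the 22.1 to 34.3 CPM of the salmon filet group. Mouse 35 thus had the highest level of all 10 mice for both genes, and without it the diets did not overlap for either. In the fit without mouse 35, 9 of the 21 enzymes had an unadjusted p under 0.05, all higher with salmon filet, where 4.34% of all genes tested did so. DESeq2 then called 5 of them, among which were Pmvk, Mvk (log2 fold change 0.64), Mvd (0.91) and Tm7sf2 (0.65). As the library of mouse 35 was also the one with 12.7% ribosomal RNA, the part of library quality in these values was not tested.

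Without mouse 31, 21 of 21 were higher with salmon filet, with a median of 0.38 and 4 at an unadjusted p under 0.05, and with the groups as labelled the median was 0.35 with 6. The median lay between 0.17 (without mouse 26) and 0.38 (without mouse 31) when each mouse was left out in turn, and the number at an unadjusted p under 0.05 between 1 (without mouse 25) and 9 (without mouse 35). Averaged over the 21 enzymes, the log2 CPM relative to the mean of the 10 mice ran from -0.14 (mouse 23) to 0.40 (mouse 27) with salmon filet and from -0.54 (mouse 39) to 0.16 (mouse 35) with beef. Mice 39 and 40, at -0.54 and -0.40, were the lowest of all, and the other 3 mice fed beef lay within the range of the salmon filet group. By their means, 16 of the 21 enzymes followed the order chow, salmon filet, beef, fishmeal from high to low, and 21 of 21 were lower with fishmeal than with beef.

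**Figure D3:**
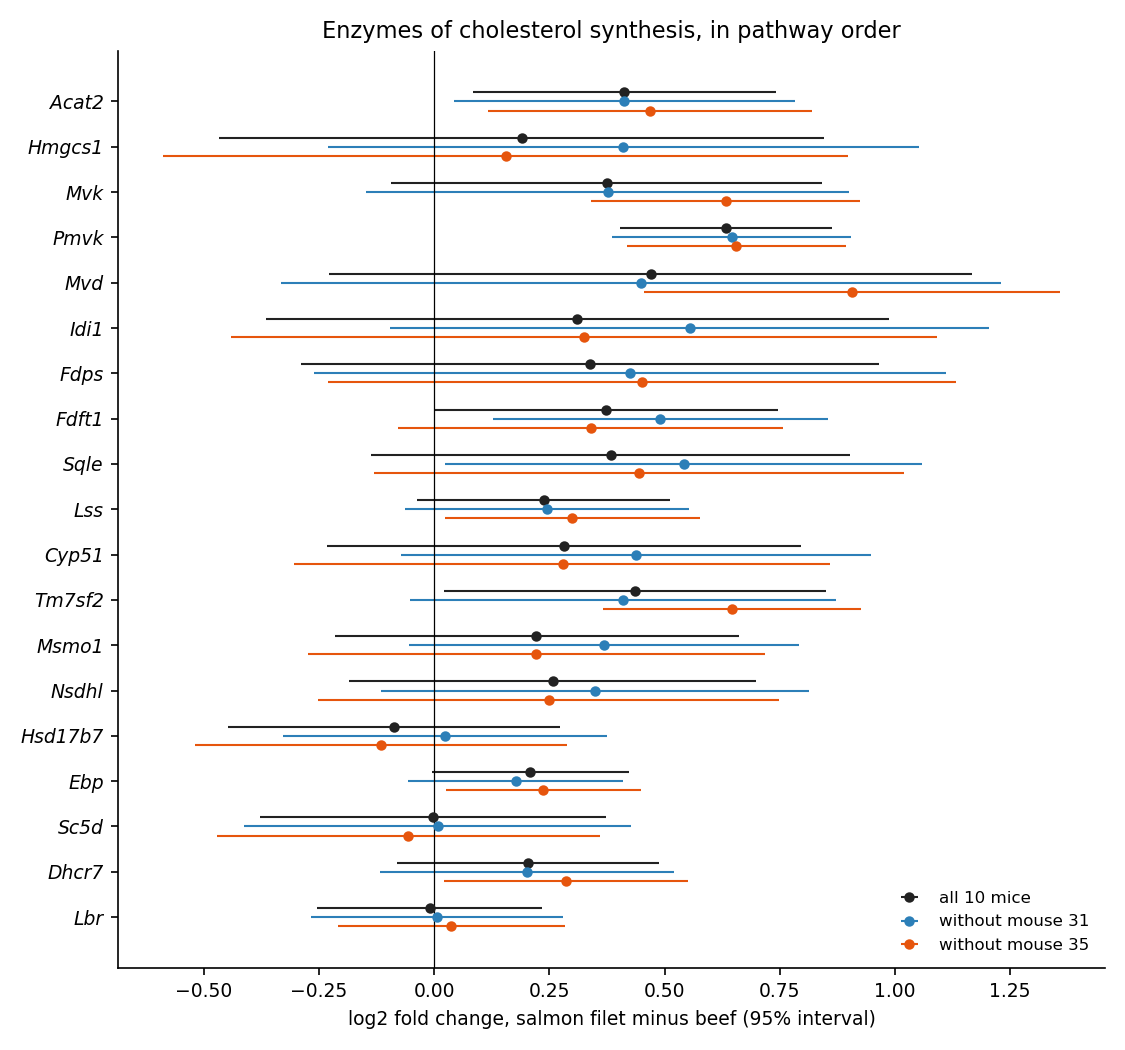
Log2 fold change between salmon filet and beef of 19 of the 21 enzymes of cholesterol synthesis in pathway order, with points for the edgeR estimate and bars for its 95% interval, from all 10 mice, without mouse 31 and without mouse 35. Nearly all points lie to the right of 0, and the intervals of Mvk and Mvd clear 0 without mouse 35 alone.

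Among the sensors of the same pathway, Srebf2, which codes for SREBP-2, had 67.8 ± 4.58 CPM with salmon filet and 65.9 ± 19.3 CPM with beef. Of 12 genes of sterol sensing and uptake tested, 6 were higher, and Npc2, which carries cholesterol out of lysosomes, alone had an unadjusted p under 0.05 (0.29 ± 0.12). Without mouse 31, 0 of the 12 had such a p. For LXR targets, Pltp, the phospholipid transfer protein of plasma, had a log2 fold change of 0.97 ± 0.36, with 53.2, 27.5, 84.8, 51.1 and 102 CPM with salmon filet and 27.8, 22.9, 62.5, 28.0 and 22.8 CPM with beef. The groups overlapped through mouse 23, at 27.5 CPM, and mouse 35, at 62.5 CPM, and without mouse 35 DESeq2 called it (1.34). Abca1, which exports cholesterol, had an estimate of the other sign (-0.25 ± 0.10, unadjusted p in edgeR = 0.0306, and 0.0653 without mouse 31). The transporters Abcg5 and Abcg8 had 76.4 and 90.8 CPM with salmon filet and 88.2 and 108 CPM with beef. In bile acid synthesis and transport none of 16 genes had an unadjusted p under 0.05 in edgeR, and Cyp7a1, the rate-limiting enzyme, had 81.2 ± 47.8 CPM with salmon filet and 112 ± 32.8 CPM with beef (log2 fold change -0.46 ± 0.34).

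Genes measured by RT-qPCR in the same project were also examined in the counts. Of these 19, 13 were higher with salmon filet, with a median log2 fold change of 0.05 (9 without mouse 31). With all 10 mice, Fabp5 (higher) and Abca1 (lower) had an unadjusted p under 0.05 in edgeR. Chrna4, a nicotinic receptor subunit, had 16.7, 3.40, 30.5, 17.2 and 29.8 CPM with salmon filet and 4.85, 20.5, 10.2, 5.08 and 5.80 CPM with beef. Its means of 19.5 and 9.28 CPM were apart (log2 fold change 1.09 ± 0.52), but mouse 23 was the lowest of all and mouse 32 was within the salmon filet range. The inflammatory gene Il1b had 1.56 and 1.51 CPM, the collagen gene Col1a1 7.19 and 6.74 CPM, and the aryl hydrocarbon receptor target Cyp1a1 0.227 and 0.282 CPM.

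PPAR-alpha targets did not separate fish from beef. Of 30 tested, 17 were higher with salmon filet, the median log2 fold change was 0.02, and none had an unadjusted p under 0.05 in edgeR, while the 95% interval lay within a 2-fold difference for 26. Cyp4a10, an omega-hydroxylase, had 426 and 450 CPM with salmon filet and beef, and Cpt1a, which admits fatty acids to mitochondria, 447.5 and 508.5 CPM. Left out in turn, the mice moved the median of the list between -0.09 and 0.09.

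Fatty acid synthesis varied widely within both diets. Of 19 lipogenic genes, 13 were higher with salmon filet (10 without mouse 31 and 7 with the groups as labelled) and 1 had an unadjusted p under 0.05, Acss2, which activates acetate (0.61 ± 0.27). Its level was 236, 113, 352, 224 and 327 CPM with salmon filet and 174, 247, 147, 118 and 140 CPM with beef, so that mouse 23 was below all mice fed beef and mouse 32 above 3 of the mice fed salmon filet. Srebf1, the gene of SREBP-1c, had 293 ± 62.9 and 310 ± 105 CPM, and Fasn, fatty acid synthase, 956 and 860 CPM. The delta-9 desaturase Scd1 ran from 4787 to 14630 CPM with salmon filet and from 3658 to 10620 CPM with beef, and the desaturases of polyunsaturated fatty acids, Fads1 and Fads2, had means of 732 and 1119 CPM with salmon filet and 703.5 and 1201 CPM with beef. Scd2 was the member of the desaturase and elongase list with an unadjusted p under 0.05 (0.42 ± 0.19). Without mouse 25 the lipogenic median went from 0.15 to -0.09 and no gene of the list was higher under that p, and without mouse 31 none was either.

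Iron and heme genes, of interest as beef carries heme iron, gave no gene of 28 with an unadjusted p under 0.05 in edgeR and a median of 0.04, while 1 had such a p without mouse 23. Hamp, hepcidin, had 363 and 346 CPM with salmon filet and beef, and Tfrc, the transferrin receptor that is raised when iron is short, 16.8 and 18.5 CPM. In histidine catabolism 6 of 6 genes were higher with salmon filet, with a median of 0.10 and none under that p. Of 31 genes of other amino acid catabolism and the urea cycle, 17 were higher, with a median of 0.06 and none under that p, and Cps1, the first urea cycle enzyme, had 3441 and 4084 CPM. In branched chain amino acid catabolism, 1 of 18 genes had an unadjusted p under 0.05, Ppm1k, the phosphatase that activates the branched chain ketoacid dehydrogenase. It had 134, 132, 141, 117 and 175 CPM with salmon filet and 175, 176, 180, 206 and 184 CPM with beef (log2 fold change -0.39 ± 0.11), and mouse 27 alone kept the ranges from being separate. The dehydrogenase subunits Bckdha and Bckdhb had 151 and 49.5 CPM with salmon filet and 142 and 43.8 CPM with beef.

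Selenium is abundant in fish, and the selenoproteins were examined for that reason. Of 19, 15 were higher with salmon filet and 2 had an unadjusted p under 0.05: Gpx4, which reduces lipid peroxides (0.31 ± 0.11), and Gpx3, the plasma glutathione peroxidase (0.51 ± 0.19). With the groups as labelled, 0 of the 19 had such a p. Gpx4 had 80.1, 69.6, 97.5, 81.8 and 75.02 CPM with salmon filet and 58.9, 57.1, 69.2, 73.7 and 70.1 CPM with beef, ranges that overlapped through 3 mice. Selenop, the selenium carrier of plasma and the most abundant of them, had 5752 and 5842 CPM. Of 18 antioxidant genes, Gstm3, a glutathione transferase (0.58 ± 0.21), and G6pdx, which supplies NADPH (0.55 ± 0.18), were under the same p. With the groups as labelled, Gstm3 had an unadjusted p of 0.105 in edgeR. Nqo1, a standard target of NRF2, had 14.89 and 14.99 CPM with salmon filet and beef, and Hmox1, heme oxygenase, 32.5 and 27.5 CPM.

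Among genes of glucose metabolism and insulin action, estimates were mostly lower with salmon filet. Insr, the insulin receptor, had 178, 192, 170, 180 and 185 CPM with salmon filet and 214, 213, 215, 212 and 204 CPM with beef. All mice fed salmon filet were below all mice fed beef, by a log2 fold change of -0.22 ± 0.07 (SE). Igf1 had 724 and 836 CPM (-0.20 ± 0.09). Ccnd1, cyclin D1, belongs to the proliferation list instead. It had 54.9 ± 10.9 and 77.1 ± 5.88 CPM (-0.48 ± 0.12), with no overlap between groups. Of 14 proliferation genes tested, 6 were higher, with a median of -0.07, and Ccnd1 alone had an unadjusted p under 0.05 in edgeR. In the list of glucose metabolism and insulin, 3 of 17 genes were higher and the median was -0.20, with Insr and Igf1 the 2 under an unadjusted p of 0.05 and none called by edgeR or DESeq2 in all 10 mice. With the groups as labelled, the unadjusted p in edgeR was 0.078 for Insr and 0.201 for Igf1. Pck1 and G6pc, the enzymes of gluconeogenesis, had 841 and 167 CPM with salmon filet and 1027 and 231 CPM with beef. Of 19 clock genes, 4 were higher and the median was -0.21, from -0.31 without mouse 31 to -0.03 without mouse 40. Rora alone had an unadjusted p under 0.05 (-0.24 ± 0.10), whereas with the groups as labelled the median was -0.42 and 9 had such a p, 4 higher and 5 lower with salmon filet. In the 10 mice by column header, the strongly cycling Dbp averaged 28.6 and 43.2 CPM.

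**Figure D4:**
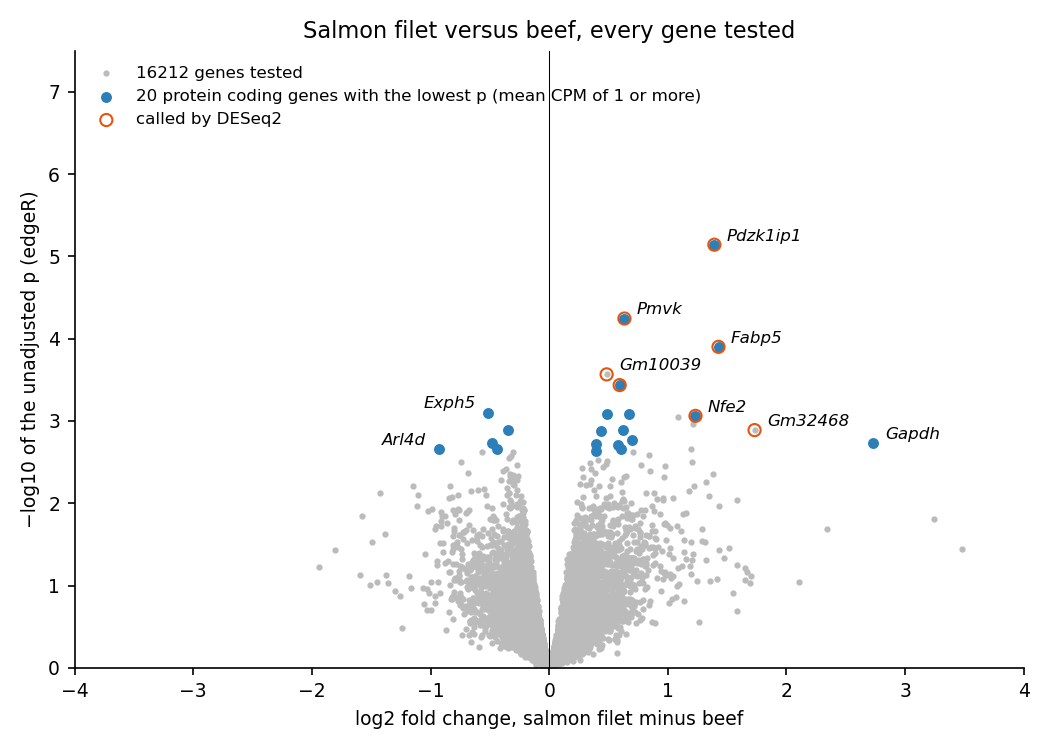
Log2 fold change between salmon filet and beef against the −log10 of the unadjusted p of edgeR for each of 16212 genes, with the 20 protein coding genes of lowest p filled and the 7 genes that DESeq2 called ringed. Pdzk1ip1, Pmvk and Fabp5 have the lowest p, and Gapdh has the largest fold change among the filled points.

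The 20 protein coding genes with the lowest p and a mean of at least 1 CPM contained 15 that were higher and 5 that were lower with salmon filet, and edgeR called none of them. Besides those described above, the higher ones included Gsn, the actin-severing gelsolin (0.67 ± 0.15), Gramd4 (0.49 ± 0.11), the matrix proteoglycan gene Podn (0.62 ± 0.15), Kctd2 (0.44 ± 0.11), Gcat, which cleaves 2-amino-3-ketobutyrate to glycine (0.69 ± 0.17), Bin1 (0.39 ± 0.10), the GTPase gene Rnd2 (0.58 ± 0.15), Tspan3 (0.60 ± 0.16), Smagp (0.40 ± 0.10) and Gapdh. The lower ones were Exph5, a partner of RAB27 in vesicle transport (-0.52 ± 0.12), Cpeb3, which regulates translation (-0.35 ± 0.08), Gprin3 (-0.44 ± 0.11), the small GTPase gene Arl4d (-0.93 ± 0.24) and Ccnd1. Exph5 had 18.7 to 23.1 CPM with salmon filet and 23.4 to 35.1 CPM with beef, without overlap. Its unadjusted p in edgeR was 0.0843 with the groups as labelled. Podn lies within the interval of Scp2 on the same strand. A second annotated gene named Gcat overlaps the counted one by 7453 bases on the same strand. The transcripts of these 2 Gcat entries share 1133 bases at 100% identity, so the Gcat counts are less certain. Parentheses in this paragraph hold log2 fold changes with their SE.

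Gapdh, the glycolytic enzyme often used as a reference gene, had the largest fold change of the 20. Its log2 fold change was 2.73 ± 0.69 (SE), a 6.63-fold difference. Its level was 194, 158, 12.7, 13.5 and 66.4 CPM with salmon filet and 8.31, 9.47, 19.0, 16.9 and 14.2 CPM with beef. Mice 22, 23 and 27 were thus high and mice 25 and 26 lay within the beef range. Its transcript shared at least 200 bases at 95% identity or more with 55 other annotated genes, mostly processed pseudogenes, so the counts depend on how reads that fit several genes were treated and are uncertain. The same holds for the pseudogene Gm10039, called by DESeq2, whose transcript matched Atp5g1 over 411 bases at 99.8% identity. Its level was 20.1 to 25.1 CPM with salmon filet and 13.8 to 18.2 CPM with beef. Gm32468, a long non-coding RNA at chr10:93084206-93093727, had 2.24, 1.00, 1.17, 2.08 and 2.59 CPM with salmon filet and 1.07, 0.741, 0.373, 0.186 and 0.340 CPM with beef, so mouse 31, at 1.07 CPM, overlapped the salmon filet group. Without that mouse its log2 fold change was 2.13 instead of 1.73.

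Markers of other liver cells were compared for the same 10 mice. Stellate cell and matrix genes were higher with salmon filet for 12 of 13, with a median of 0.27 and 5 under an unadjusted p of 0.05, among them Lum (0.50 ± 0.17) and Dcn (0.35 ± 0.15), which are matrix proteoglycans, Des, the desmin gene (0.44 ± 0.16), and Pdgfrb, the receptor for PDGF-B (0.37 ± 0.15). Their summed level overlapped, at 354 to 557 CPM with salmon filet and 350 to 494 CPM with beef, and Rgs5 and Reln had 37.9 and 87.2 CPM against 37.1 and 87.8 CPM. The number under that p was 7 without mouse 23, 3 without mouse 22 and 2 with the groups as labelled. The genes DESeq2 called without mouse 35 included the matrix genes Col6a2 (0.70), Col8a2 (1.44), Tnxb (0.76) and Adamts10 (0.63). The stellate cell globin Cygb (0.60) was also among them. All were higher, as were 26 of the 30 genes called in that fit. They were picked after their values were seen, and none was called with all 10 mice. Cholangiocyte markers were higher for 7 of 7, with a median of 0.48, and Krt19 (0.77 ± 0.30) and Cldn7 (0.91 ± 0.29) were under the same p. Without mouse 22 the median was 0.29 and 1 gene was under that p. Their summed level was 47.7 to 91.9 CPM with salmon filet and 32.2 to 74.8 CPM with beef, and Cldn7 was at 1.08 CPM in mouse 22 and 0.456 to 0.567 CPM in the others of its group. As these cell types are a minor part of liver, how much of these differences came from the share of each cell type was not tested.

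Genes of Kupffer cells (17 tested), T and NK cells (14), MHC class II (7) and liver endothelium (10) had medians between -0.10 and 0.18, and none of them had an unadjusted p under 0.05 in edgeR with all 10 mice. With the groups as labelled all 4 medians were below 0, the lowest being -0.32 for T and NK cells, and 1 Kupffer cell gene had such a p. Among B and plasma cell genes, Ighm, the heavy chain of IgM, had 18.1, 11.3, 26.5, 21.9 and 20.1 CPM with salmon filet and 7.13, 14.98, 9.11, 14.2 and 15.2 CPM with beef (0.70 ± 0.24). Of the 9 genes of that list, however, 2 were higher, with a median of -0.08, and the median was -0.24 without mouse 31 and 0.12 without mouse 35. Only 4 of 12 neutrophil markers passed the filter on low counts, Ly6g was at 0 in all 10 livers, and S100a8 (1.43 ± 0.61) had 0.806 and 0.947 CPM in mice 22 and 23 against at most 0.260 CPM in the other 8. Of adipocyte markers 2 of 8 and of exocrine pancreas markers 1 of 12 were tested, and Lep, Retn, Prss2 and Amy2b had no counts.

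Acute phase genes were higher with salmon filet for 14 of 15, with a median of 0.36 and none under an unadjusted p of 0.05. The higher values rested on mouse 23. Saa1, serum amyloid A, had 1400 CPM in that mouse and 52.1 to 121 CPM in the other mice fed salmon filet, against 36.3 to 191 CPM with beef, and Lcn2 had 284 CPM in mouse 23, 10.1 to 23.1 CPM in the others of its group and 6.84 to 36.1 CPM with beef. Without mouse 23, 3 of the 15 were higher and the median was -0.10, while without mouse 27 the number under that p was 4. The stress gene Atf3, the member of the immediate early list under that p (0.76 ± 0.33), was also highest in mouse 23, at 2.95 CPM against 0.923 to 1.258 CPM in its group. Without this mouse no gene of that list was higher under that p, 4 were lower, and its median went from -0.22 to -0.66.

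**Figure D5:**
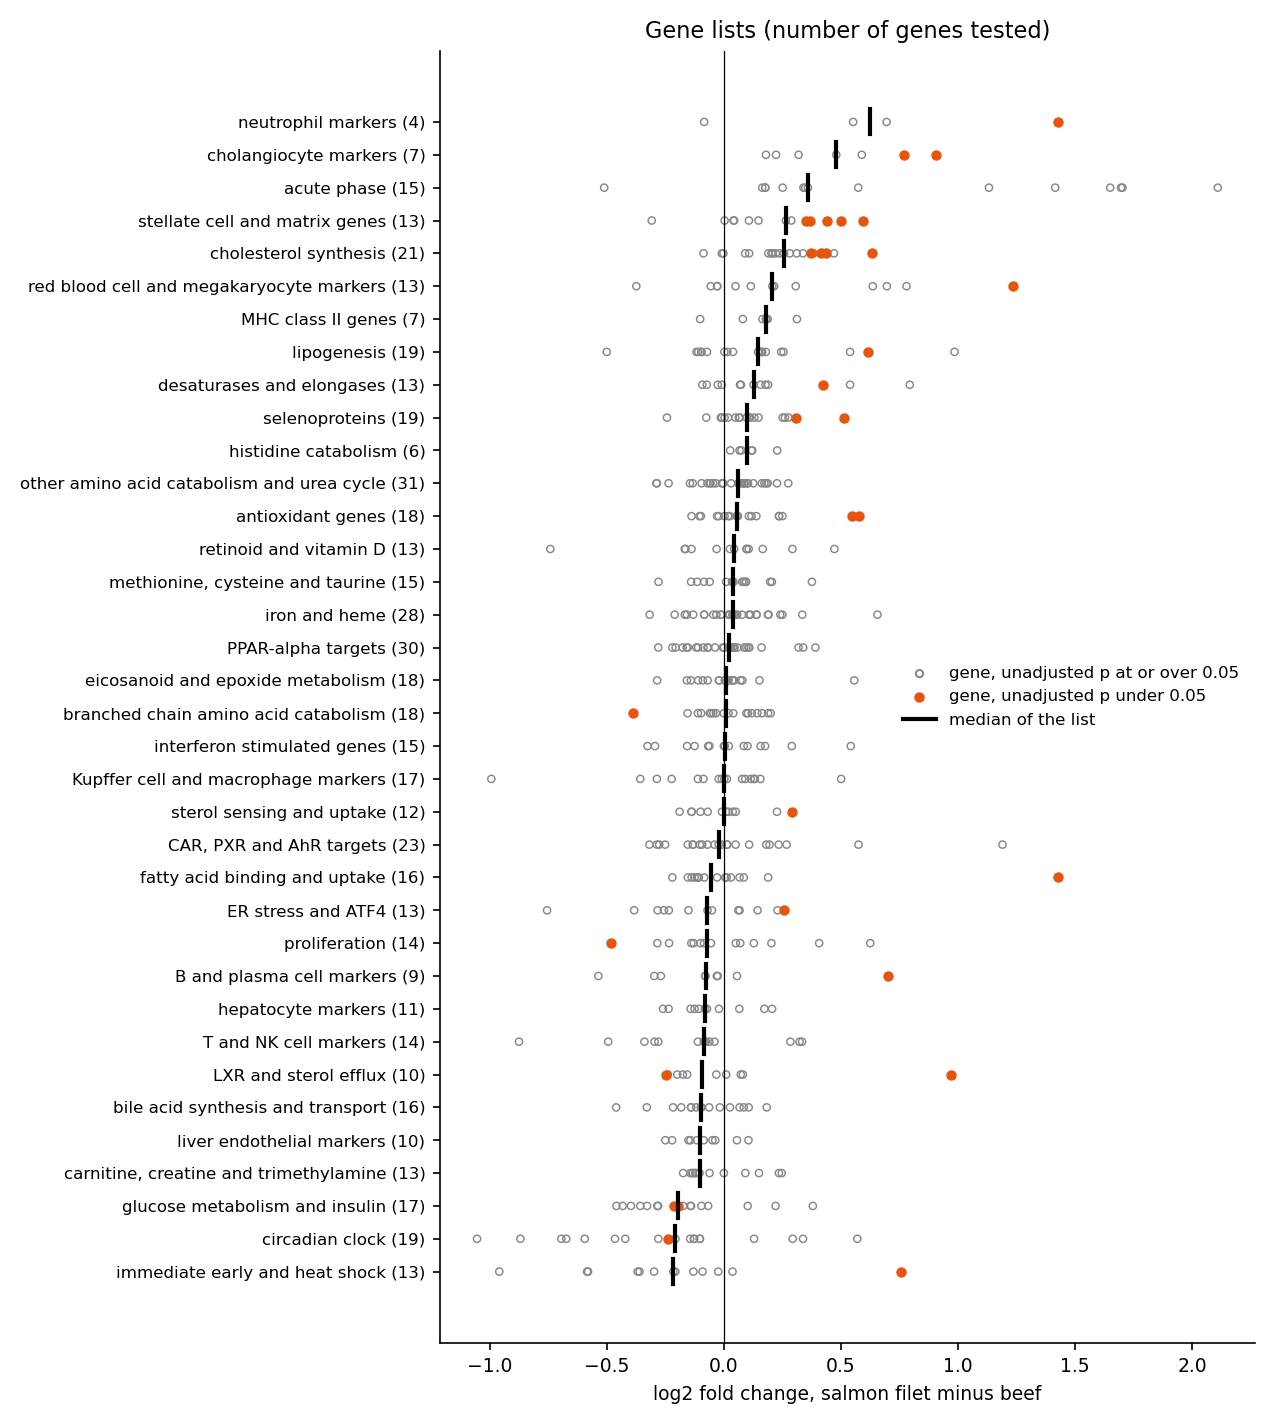
Log2 fold change between salmon filet and beef of each gene in the lists with at least 4 genes tested, without the lists taken from the study, ordered by their medians (black bars), with genes under an unadjusted p of 0.05 filled. Cholangiocyte, stellate cell and cholesterol synthesis genes lie mostly to the right of 0, and PPAR-alpha targets, iron and heme genes and bile acid genes spread around it.

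The lists of eicosanoid metabolism, methionine and taurine, carnitine and creatine, retinoids and vitamin D, targets of CAR, PXR and AhR, and interferon had medians between -0.10 and 0.04 and no gene under an unadjusted p of 0.05 in edgeR with all 10 mice. Over the 40 lists, 546 different genes were tested. Of these, 26 were higher and 6 lower with salmon filet at an unadjusted p under 0.05 in edgeR. Over all genes tested, 2.67% were higher and 2.24% lower at that p. The lists were chosen with earlier results known, so no direction can be read from these counts. In edgeR none was called, and DESeq2 called 5. These were the 5 genes with salmon and beef differences that the study had chosen on these samples. All 5 are among the 26 and are not independent evidence. In edgeR, run on the same counts, all 5 were also higher with salmon filet. For each of the 5 the diets by header did not overlap, so leaving out any 1 mouse could not change the direction. With the groups as labelled all 5 were higher too.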

How the data were processed

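Total RNA of 20 mouse livers was made into strand-specific mRNA libraries, 1 per mouse. The authors mapped the reads with HISAT2, counted them per Ensembl gene with featureCounts 1.4.6-p1 and deposited raw counts; whether strand was used and how reads fitting several genes were treated is not given in the sources used here. They also deposited TPM values (counts scaled to gene length and depth), used only for the limma alternative. The labels name a human build, GRCh38, for these mouse data, so positions come from GENCODE M21 on GRCm38, in which 55141 of 55487 identifiers were found. Promoters are from RefSeq (GRCm38.p6).

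Counts of the 10 mice were tested with edgeR 4.0.16 in R 4.3.3 (TMM normalisation, filterByExpr with its minimum set to 10 counts, two-sided quasi-likelihood test, Benjamini-Hochberg adjustment over all genes). Values in CPM use TMM factors over all 20 libraries, and log2 CPM a prior count of 2. DESeq2 1.42.0 and limma 3.58.1, on log2(TPM + 1) of genes averaging 0.5 TPM or more, were alternatives. Near-identical transcripts were sought with blastn 2.17.0. The depth was 42526234 to 60432246 counts per library. Nothing in the labels tells which mice shared a cage, though the study measured food intake per cage. The tests treat each mouse as independent, so their p-values take no account of shared cages.

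Members and lists were chosen with earlier results of these data known. Genes were named by rule: called genes, otherwise those with the lowest p and a mean of at least 1 CPM up to 20; the genes the study names for salmon and beef or measured by RT-qPCR; and per list the called members, else up to 3 with the lowest unadjusted p under 0.05, else up to 2 with the highest level. Other list members, and genes called when a mouse was left out, were named after their values were seen. Alternatives tried were other groups for mouse 31, other tools, normalisations, filters and samples in the fit, and each mouse left out. DESeq2 with mice left out or regrouped was added after seeing the data. The values of some genes that the rule names are not reported here, though counts over lists include them.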

Additional observations from a re-analysis of the deposited data

Results flagged for a closer look

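In groups of 5 mice, 162 sets of values were examined for 1 mouse set apart from the other 4 by Dixon's criterion, and 20 were found. The criterion flags about 1 in 20 of independent sets drawn from a normal distribution. Many of the genes were picked by their values and several vary together, so the number found cannot be weighed against that rate. Mouse 23 (salmon filet) accounted for 9 of the 20. Its acute phase genes were high, with Saa1 at 1400 CPM, Saa2 at 1108 CPM, Lcn2 at 283.9 CPM, Hp at 6259 CPM, Fgb at 10080 CPM and Hpx at 8235 CPM. The stress gene Atf3 was at 2.95 CPM and Arl4d at 4.89 CPM in the same mouse, and its position on the first principal component was 17.3. Mouse 35 (beef) accounted for 6, with ribosomal RNA at 12.7% and protein coding genes at 84.3% of counts, Pltp at 62.5 CPM, Tm7sf2 at 88.2 CPM, Atf5 at 310.3 CPM and Cpeb3 at 10.0 CPM. Mouse 32 (beef) was set apart for Tspan3 at 1.93 CPM and Cyp7a1 at 169.2 CPM. The others were Ppm1k at 205.8 CPM in mouse 39 (beef), Rnd2 at 7.76 CPM in mouse 25 and Cldn7 at 1.08 CPM in mouse 22 (both salmon filet). The causes were not tested.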

How the results depend on the processing

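The results varied with the mice included. In edgeR no gene was called under any planned scaling or filter except 1 gene, Pdzk1ip1, when all genes with at least 1 count were tested. DESeq2 called 7 genes, 5 of them in the gene lists. Without mouse 31 it called 5 genes (3 in the lists), as labelled 2 (1 in the lists), and without mice 31 and 35 it called 28 (9 in the lists). With each mouse left out, edgeR and DESeq2 together gave 0 to 30 called genes and 0 to 11 called list genes, and the DESeq2 calls numbered 30 when mouse 35 was left out, 22 for mouse 23, 11 for mouse 25 and 3 for each of mice 22 and 39. The exact test of distances stayed above the threshold in all settings run.

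Small estimates changed sign. Without mouse 31, and in DESeq2 without it, the log2 fold changes were 0.023 and 0.021 for Hsd17b7, 0.008 and 0.005 for Sc5d, and 0.007 and 0.005 for Lbr. With groups as labelled, edgeR and DESeq2 gave 0.111 and 0.111 for Hsd17b7, 0.014 and 0.014 for Sc5d, and 0.019 and 0.020 for Lbr. Without mice 31 and 35 they gave 0.037 and 0.036 for Hsd17b7 and 0.089 and 0.089 for Lbr. Upper quartile normalisation gave 0.003 for Sc5d, and limma gave 0.095 for Sc5d, 0.048 for Lbr and 0.042 for Srebf1. With each mouse left out, the ranges over edgeR and DESeq2 were -0.018 to 0.411 for Hmgcs1, -0.191 to 0.023 for Hsd17b7, -0.090 to 0.180 for Sc5d, -0.058 to 0.044 for Lbr, -0.195 to 0.094 for Srebf1 and -0.069 to 0.222 for Srebf2. The cause was not tested.

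No paired analysis was possible because the 2 groups share no mouse numbers.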
